A study of Mus musculus with 12 samples.

Results

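Dppa2, Dppa3, Dppa4 and Dppa5a are 4 mouse genes named for developmental pluripotency, and their transcripts were followed through the fetal and newborn male germ line. They were taken from a table of 55487 genes as the rows whose Ensembl identifier carries 1 of these 4 symbols. All 4 were found and all 4 passed the filter on low values (10 normalized counts or more in 3 or more libraries), as did 22384 genes in all. The libraries were made from male gonocytes, testis germ cells that have not yet become spermatogonia, of Mvh-Venus transgenic mice, whose reporter is driven by the promoter of Mvh (Ddx4), a germ cell gene. There were 4 groups of 3 libraries, taken in embryonic life at E13.5 and E16.5 (days of gestation), at birth (P0) and on day 3 after it (P3). The value used is the normalized count, a read count divided by 1 size factor per library, and each ± below is an SD over 3 libraries.

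The labels disagree on genotype. Titles and source names call every library WT, whereas the genotype field reads Morc1 (+/-) at E13.5 and P0 and Morc1 (-/-) at E16.5 and P3. Libraries were therefore grouped by stage alone. Stage and tagged genotype cannot be told apart in 4 of the 6 pairs of stages, and the pairs P0 against E13.5 and P3 against E16.5 each stay within 1 tag. Morc1 itself, a germ cell ATPase gene, was read in every library. The E13.5 libraries held 1621, 1830.3 and 1640.5 normalized counts of it and the E16.5 libraries 32916.5, 32890.2 and 28328. The P0 libraries held 7708, 7501 and 7279.9, and the P3 libraries 10929, 10584 and 11129. The E16.5 libraries, tagged Morc1 (-/-), thus held the most. The order of P0 and P3 changed with scaling, with a log2 difference from -0.30 to 0.54 for Morc1 in P3 against P0. Gene counts do not show whether those transcripts were intact.

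DPPA2 and DPPA4 are nuclear proteins with a SAP domain, a DNA-binding fold. They bind each other, occupy promoters that carry both activating and Polycomb histone marks in embryonic stem cells, and switch on genes of the cleavage-stage embryo there. DPPA3, also called STELLA or PGC7, marks primordial germ cells and oocytes, and it holds UHRF1 away from chromatin, which limits maintenance DNA methylation. DPPA5A, also called ESG1, is an RNA-binding protein with a KH domain found in pluripotent cells and early germ cells. Male germ cells silence much of the pluripotency program in the second part of fetal life, the same period in which their genome is methylated anew.

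By GENCODE M21 on GRCm38, Dppa4 (ENSMUSG00000058550, chromosome 16, 48283733 to 48294237, plus strand) and Dppa2 (ENSMUSG00000072419, chromosome 16, 48303908 to 48319723, plus strand) lie side by side, with 9.67 kb between them. Morc1 starts 112 kb beyond Dppa2 on the same strand. Dppa3 (ENSMUSG00000046323) lies at 122626410 to 122630272 on the plus strand of chromosome 6, between Gdf3 and Nanog. Dppa5a (ENSMUSG00000060461) lies at 78367052 to 78368177 on the minus strand of chromosome 9, next to Ooep. None of the 4 overlaps another annotated gene, and their merged exons span 1662 bases (Dppa4), 2447 (Dppa2), 892 (Dppa3) and 619 (Dppa5a).

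Reads per library numbered 40946616 to 51533747. The 5 germ cell markers (Ddx4, Dazl, Dnd1, Mael and Kit) summed to 249637 to 259904 normalized counts at E13.5, 219140 to 242224 at E16.5, 127667 to 135468 at P0 and 220199 to 238162 at P3, so germ cell transcripts were plentiful in every library. Each list of markers of other cells summed to less: the 6 Sertoli markers summed to 1005 to 1553 at E13.5 and to 3143 to 5774 at P0, where they were highest. The 5 peritubular markers ran from 198 to 229.6 at E13.5 and from 3298 to 3719 at P0. The 5 mast cell markers were all at 0 at E13.5 and summed to 1178 to 2699 at P0. The 4 endothelial markers summed to 4429 to 5192 at E13.5 and to at most 1157 later, but that fall was of Pecam1 alone, from a mean of 4618 to 282 by E16.5. Tek, Cdh5 and Kdr went from 98.0, 9.92 and 2.84 to 387, 29.8 and 38.5 in the same step. The 5 Leydig markers ranged from 608 to 7681 among the E16.5 libraries and summed to at most 723 at E13.5. The 5 macrophage and leukocyte markers summed to 38.1 to 86.2 at E13.5, and their sum was highest at E16.5, where Dppa4 peaked, with 981 to 1152. That peak was mostly of Cd68, with a mean of 938 at E16.5 and 38.8 at P0. Ptprc, Adgre1 and Lyz2 had lower means at E16.5 (7.40, 47.5 and 5.59) than at P0 (54.1, 72.7 and 75.7). Csf1r had 57.3 at E16.5 and 39.4 at P0. The 4 red blood cell markers ran from 66.3 to 381.9 at E13.5 and from 1735 to 2345 at E16.5. Genes with a read numbered 22678 to 22774 per E13.5 library, 29291 to 30776 per E16.5 library, 34207 to 34857 per P0 library and 25749 to 26285 per P3 library. The part of these signals in the results below was not tested. In such bulk samples, fewer cells of a type and less RNA per cell cannot be told apart. The labels do not say that libraries of a stage came from separate animals, so the p-values measure only the spread between these libraries.

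Dppa3 fell at every step, from one of the most abundant transcripts of the cell to a trace. The E13.5 libraries held 82674.5, 78046 and 78521 normalized counts, and those of E16.5 held 14062, 14501 and 15467. P0 libraries were down to 150.9, 194.5 and 199.8, and P3 libraries to 21.3, 11.8 and 20.2. No 2 stages overlapped. By limma, log2 expression fell by 2.44 from E13.5 to E16.5 (SE 0.16, adjusted p = 4.02e-10), fell by 6.34 from there to P0 (adjusted p = 6.14e-14) and fell by 3.31 from P0 to P3 (adjusted p = 1.22e-11). The mean went from 79747 ± 2546 to 17.8 ± 5.22, a 4485-fold difference between E13.5 and P3 (log2 difference -12.09, adjusted p = 8.26e-18). The step across birth was the steepest of the 3 for this gene, with the E16.5 mean 80.8 times the P0 mean. The 3 P3 libraries rest on 22, 12 and 20 reads, with exact 95% Poisson intervals of 13.4 to 32.3, 6.09 to 20.6 and 12.4 to 31.3 normalized counts (counting error only). Their counts lie well below all P0 libraries, and the intervals of the 3 overlap each other.

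Dppa5a, the KH-domain gene, fell most before E16.5 and again before birth. Normalized counts of 44113, 42742 and 42134 in the E13.5 libraries gave way to 1763, 2222 and 2522 in those of E16.5. The P0 libraries held 681.9, 757.5 and 827.3, and the P3 libraries 1449.7, 1265 and 1053. The stages do not overlap, and the low point is P0. By limma, the log2 difference was -4.32 between E16.5 and E13.5 (SE 0.12, adjusted p = 1.62e-14), a 19.8-fold lower mean, and -1.51 between P0 and E16.5 (adjusted p = 2.00e-08). Between P0 and P3 the log2 difference was 0.72 (adjusted p = 5.51e-05). That last difference depends on scaling: with library totals set equal it was -0.12 (adjusted p = 0.446). P3 against E13.5 gave a log2 difference of -5.11 (limma adjusted p = 3.97e-15).

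Dppa2, a partner in the heterodimer with DPPA4, showed 1 large change. In the E13.5 libraries its normalized counts were 3713.5, 3637 and 3633, and in those of E16.5 they were 421.8, 592.3 and 599.1. Birth (P0) gave 471.5, 503.7 and 505.3, and P3 gave 634.7, 613.8 and 551.7. All 9 libraries after E13.5 lay between 421.8 and 634.7, and all 3 at E13.5 lay at 3633 or above. The fall from 3661 ± 45.4 to 537.7 ± 100.5 was 6.81-fold (limma, log2 difference -2.78, SE 0.12, adjusted p = 1.51e-12). Among the later stages the direction was not settled. P0 against E16.5 gave -0.11 (limma adjusted p = 0.454) with overlapping libraries, and P3 against E16.5 gave 0.17 (adjusted p = 0.202), also with overlap. P3 against P0 gave 0.28 (limma adjusted p = 0.0413) without overlap. That last value was -0.0079 under TMM factors (adjusted p = 0.956) and -0.56 when library totals were set equal (adjusted p = 0.000942). It also missed the threshold in 8 of the 12 fits that left out 1 library, among them each P0 library and P3 libraries 1 and 3, where it ran from 0.24 to 0.30 (adjusted p 0.0518 to 0.124). Without E16.5 library 1, the lowest of that stage, P0 against E16.5 became -0.27 (adjusted p = 0.0177).

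Dppa4 went its own way: it rose before it fell. E13.5 libraries held 24782, 24979.8 and 26318.5 normalized counts and E16.5 libraries 60479, 58776 and 57691. Then came 10737, 9404 and 9416 in the P0 libraries, and 6915, 7001 and 6272 in the P3 libraries. No stages overlapped. From E13.5 to E16.5 the mean rose 2.33-fold, from 25360.0 ± 836 to 58982 ± 1405 (limma, log2 difference 1.22, SE 0.07, adjusted p = 6.28e-11). It then fell by 2.58 on the log2 scale to P0 (adjusted p = 1.38e-13) and by 0.55 to P3 (adjusted p = 1.97e-06). Within 1 genotype tag, P0 against E13.5 gave -1.37 (adjusted p = 8.92e-12) and P3 against E16.5 gave -3.13 (adjusted p = 5.78e-15). The former shrank to -0.20 with equal library totals (adjusted p = 0.00258), whereas the rise at E16.5 was 1.22 to 1.72 over the 4 scalings.

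**Figure D1:**
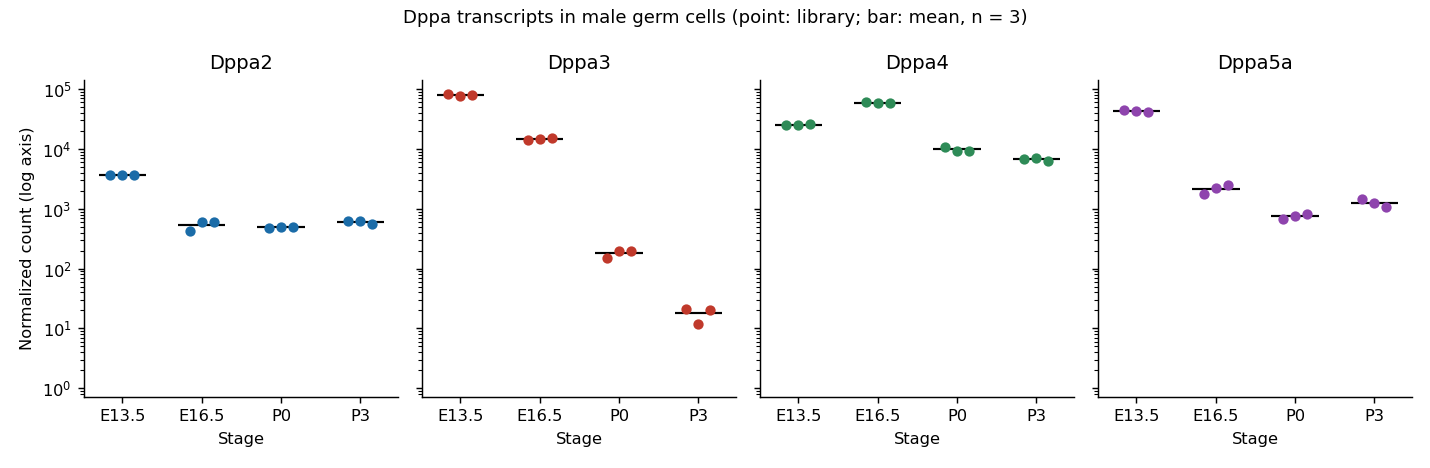
Normalized counts (log axis) of the 4 Dppa genes at E13.5, E16.5, P0 and P3; each point is 1 library and each black bar the mean of 3. Dppa3 descends through 4 separate levels, Dppa5a and Dppa2 drop after E13.5, and Dppa4 peaks at E16.5.

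The 4 genes were read against what all genes did. Each differed among stages by limma's F-test (adjusted p from 3.42e-17 for Dppa3 to 6.32e-13 for Dppa2), but 95.2% of the 22384 genes did. Between E13.5 and E16.5, 3 members fell and 1 rose. Over all genes tested, 80.1% passed the threshold, 34.6% lower and 45.5% higher. Between E16.5 and P0, 3 members fell and Dppa2 did not pass, where 61% of all genes passed, 33.4% lower and 27.6% higher. Between P0 and P3, 2 fell and 2 passed on the higher side, where 76.5% passed, 36.4% lower and 40.1% higher. P0 against E13.5 had all 4 lower, where 86.1% of all genes passed, 40.5% lower and 45.7% higher. P3 against E16.5 had 3 lower and 1 not past, where 69.5% passed, 35.2% lower and 34.2% higher. P3 against E13.5 had all 4 lower, where 70.4% passed, 31.2% lower and 39.2% higher. Passing the threshold was thus ordinary here. The members' median log2 difference was -4.36 for P0 against E13.5 and -3.86 for P3 against E13.5, beside 0.20 and 0.16 over all genes tested, and -0.13 beside 0.05 for P3 against P0. Libraries of the 2 stages did not overlap for 4, 3 and 4 members in the 3 consecutive comparisons, and for 80.2%, 69.5% and 81% of all genes. They did not overlap for 4 members in P0 against E13.5 (88.1% of all genes), 3 in P3 against E16.5 (71.6%) and 4 in P3 against E13.5 (71.3%).

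**Figure D2:**
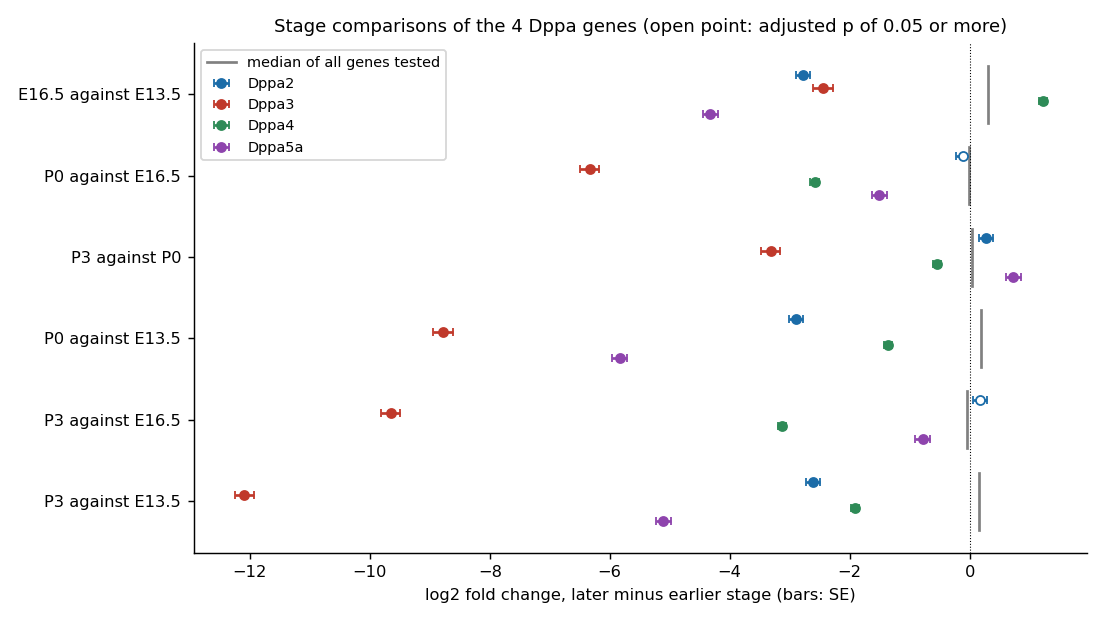
Log2 fold change (later minus earlier stage, with SE bars) of each Dppa gene in the 6 pairs of stages, with grey lines at the median of all genes tested. Open points, both of Dppa2, have an adjusted p of 0.05 or more; the lowest point is Dppa3 in P3 against E13.5 at -12.09, and Dppa4 at E16.5 against E13.5 (1.22) is to the right of 0.

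Per kilobase of exon, which lets genes be compared, the leading member changed with stage. At E13.5 Dppa3 had 89403 ± 2854 normalized counts per kilobase and ranked 3 among 21974 protein-coding genes, and Dppa5a had 69461 and ranked 8. Dppa4 ranked 140 with 15259, and Dppa2 ranked 2258 with 1496 ± 18.5. At E16.5 Dppa4 led with 35488, rank 16, ahead of Dppa3 at 16453 ± 806 (rank 55), Dppa5a at 3504 and Dppa2 at 219.8 ± 41.1. The order of the levels at P0 was Dppa4 (5928, rank 96), Dppa5a (1221) and then Dppa3 and Dppa2, which at 204 ± 30.1 and 202 ± 7.80 did not differ beyond their spread. At P3 Dppa4 (4049) and Dppa5a (2029) stayed ahead of Dppa2 (245 ± 17.7), and Dppa3 was last with 19.9 ± 5.85, rank 11865. From E16.5 on, Dppa4 was thus the most abundant of the 4 per length.

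**Figure D3:**
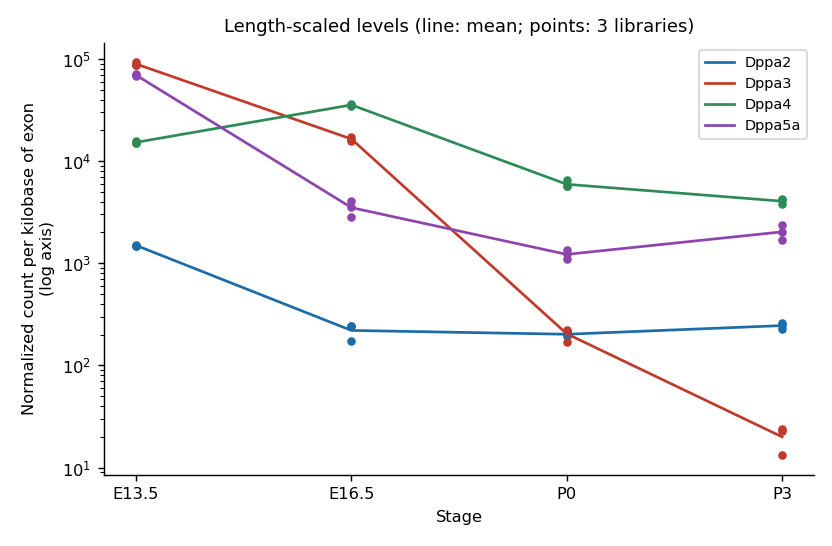
Normalized count per kilobase of merged exons (log axis) for the 4 Dppa genes by stage; points are libraries and lines join stage means. The Dppa4 line crosses above Dppa3 and Dppa5a between E13.5 and E16.5, and Dppa3 meets Dppa2 at P0 before falling below it.

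The transcripts of the heterodimer partners were not in a fixed proportion. Per kilobase, Dppa4 exceeded Dppa2 by 10.2 ± 0.427 times at E13.5 and by 166 ± 38.8 times at E16.5, where the 3 libraries ran from 142 to 211. The ratio was 29.5 ± 3.50 at P0 and 16.52 ± 0.420 at P3. The ranges of the 4 stages do not overlap, and since it is taken within a library, this ratio does not depend on scaling. The ratio of Dppa3 to Dppa5a per kilobase fell after E16.5 as well, from 4.77 ± 0.673 in the E16.5 libraries to 0.166 ± 0.0124 in those of P0 and 0.0100 ± 0.00344 in those of P3. At E13.5 it had been 1.29 ± 0.0176. Together the 4 genes took 2828 ± 26.2 RPM (reads scaled to equal library totals) at E13.5. The sum was 2022 ± 78.6 RPM in the E16.5 libraries, 472.6 ± 13.1 in those of P0 and 201.2 ± 11.4 in those of P3. Dppa3 made up 52.5% of that sum at E13.5 and 0.208% at P3, and Dppa4 16.7% and 78.3%.

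Retrocopies could take or lend reads. Of the 50-base words in the annotated transcripts, 29.1% of those of Dppa2, 16.51% of Dppa3, 31.3% of Dppa4 and 38.6% of Dppa5a also occur in another annotated gene. How reads matching several genes were counted is not given in the sources used here. Most copies held few reads. The exception for Dppa5a is Pigp, a protein-coding gene with 70 shared words and means of 2205, 608, 778 and 871 normalized counts in stage order. Its P0 libraries held 1466 to 1596 reads, beside 1306 to 1714 for Dppa5a, and it is not in the sums of copies below, which cover pseudogenes. Gm14058, which shares words with Dppa4, had 4.76% to 5.45% as many reads as Dppa4 in every library, with means of 1343, 2948, 498 and 334 normalized counts in stage order, a profile that follows that of Dppa4. Pseudogene copies made up at most 2.21% of the joint reads for Dppa2 and 0.153% to 5.72% for Dppa5a, highest at P0. For Dppa3 they made up at most 0.687%, except in 1 P3 library where 2 reads made 9.09%. Adding those reads to the members changed no call. The further family members had counts at or near 0. Dppa3-ps, Dppa5b and Dppa5c had no read in any library. Dppa1 had means of 6.96 at E16.5 and 6.91 at P0 and none at E13.5 and P3. Every 50-base word of Dppa5b and Dppa5c also occurs in another gene, so a count of 0 does not show that they were silent.

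The chromosomal neighbourhoods gave mixed pictures. Beside Dppa3, Gdf3, which encodes a TGF-beta family ligand, lies 16.3 kb away and Nanog, a core pluripotency transcription factor gene, 77.2 kb away on the other side. Both were highest at E13.5 and fell at each step (limma log2 differences -3.23, -1.32 and -2.84 for Gdf3 and -3.94, -1.88 and -4.15 for Nanog, adjusted p at most 0.00202). At P3 Nanog rested on 2 to 3 reads per library and Gdf3 on 8 to 35, so the sizes of their last falls are uncertain. Slc2a3, the glucose transporter gene next beyond Nanog, rose by 0.85 between E13.5 and E16.5 (limma adjusted p = 3.82e-07), so the descent did not extend to it. Of the 10 nearest protein-coding genes, 5 had their highest mean at E13.5, where 30.7% of all genes tested had theirs. On chromosome 16, Dppa4 and Morc1 both peaked at E16.5, as did 19.3% of all genes, and Dppa2 between them did not. Morc1 rose by 4.21 and then fell by 2.06 on the log2 scale (limma adjusted p = 1.18e-16 and 1.59e-12). Around Dppa5a, Ooep, a KH-domain gene of the oocyte 7.93 kb away, fell by 2.60 and by 1.10 (adjusted p = 1.35e-10 and 1.32e-05), with 0.11 from P0 to P3 (adjusted p = 0.537). Ddx43, an RNA helicase gene 27.6 kb away, rose by 3.81 between E13.5 and E16.5 (adjusted p = 2.13e-14).

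**Figure D4:**
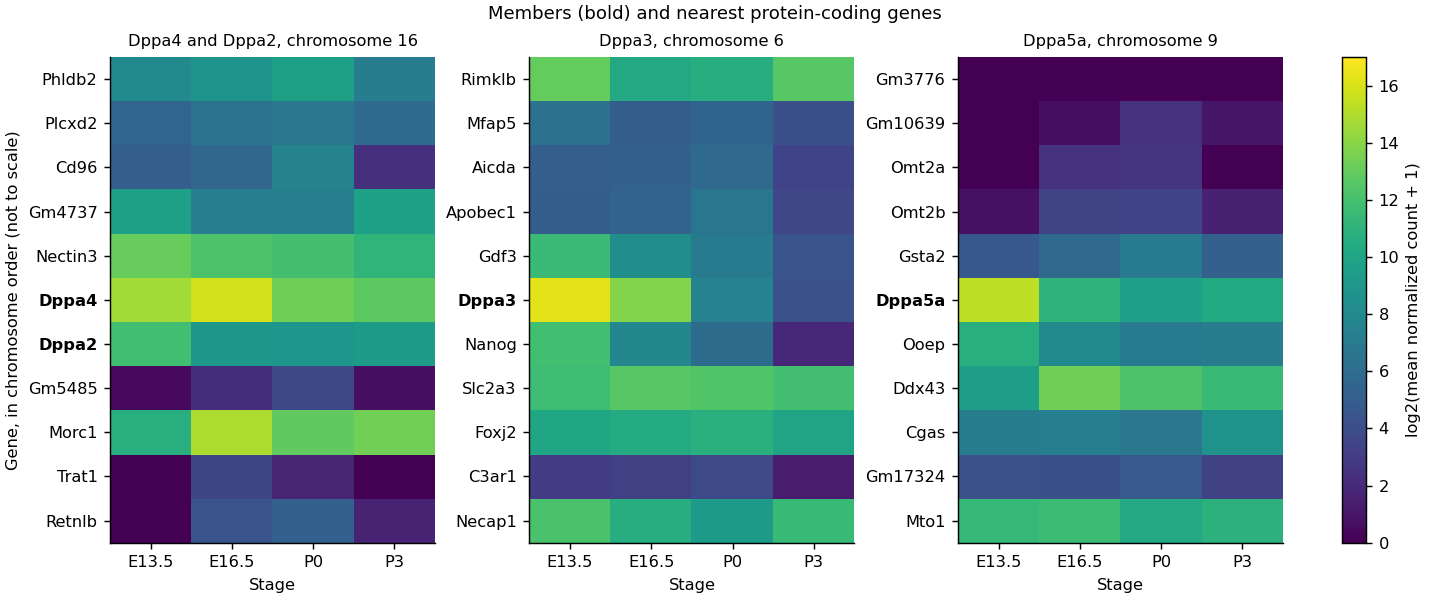
Log2(mean normalized count + 1) by stage for the 5 nearest protein-coding genes on each side of Dppa4, Dppa3 and Dppa5a, in chromosome order and not to scale, with Dppa genes in bold. Gdf3, Dppa3 and Nanog darken from left to right, and Dppa4 and Morc1 are brightest at E16.5.

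Other genes followed each member closely. By Pearson correlation of log2 values over the 12 libraries, among 13721 genes whose highest stage mean was 100 or more, the closest to Dppa3 were Utf1 (r = 0.999), which encodes a chromatin protein of pluripotent cells, Liph (0.997), Zfp819 (0.994), Rimbp2 (0.994) and Usp11 (0.992). Closest to Dppa2 were Tdh (0.995), the threonine dehydrogenase gene, Lrrfip1, R3hdm4, Raph1 and Hnrnph1. Closest to Dppa4 were Ttc33 (0.991), Tpp1 (0.991), Lonp1, Dmwd and Trim13, and to Dppa5a Cwc27 (0.995), Ears2 (0.995), Gk5, Rtraf and Scrn3. These values describe 4 stages of 3 libraries, share library scaling, and carry no test. Among the members, Dppa2 and Dppa5a were most alike (r = 0.974), followed by Dppa3 and Dppa4 (0.851) and Dppa3 and Dppa5a (0.787), and the neighbours Dppa2 and Dppa4 were least alike (0.217). Correlation ignores the size of a change: Utf1 went from 42814 to 1294 normalized counts between E13.5 and P3, a much smaller span than that of Dppa3.

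The pluripotency network mostly fell with the Dppa genes at first. All 18 listed genes were tested. Between E13.5 and E16.5, 15 fell and 3 rose (34.6% of all genes lower, 45.5% higher), with a median log2 difference of -2.04 against 0.31 over all genes tested. Examples are Sox2 (4204 ± 152 to 324 ± 52.9, limma log2 difference -3.71, adjusted p = 9.69e-13), L1td1 (-6.74, adjusted p = 2.77e-12) and Klf5 (-3.92). The 3 that rose in this step, as Dppa4 did, were Klf4 (1.48), Tbx3 (1.78) and Tfcp2l1 (0.73). Klf4 and Tbx3 rose further to P0 (means 414 to 569 and 41.0 to 296), the step in which Dppa4 fell. Tfcp2l1, a transcription factor gene of naive pluripotency, then fell by 2.76 to P0, beside a log2 difference of -2.58 for Dppa4. Pou5f1, which encodes OCT4, had its large step later: -0.91 to E16.5 and -2.75 to P0 (limma adjusted p = 1.09e-09 and 5.70e-14). From E16.5 to P0, 9 fell, 5 rose and 4 did not pass (33.4% of all genes lower, 27.6% higher). From P0 to P3, 11 fell, 5 rose and 2 did not pass (36.4% lower, 40.1% higher). Of the latter 5, Lin28a (3.03) and Sall4 (1.30) kept their sign under the 4 scalings, whereas Pou5f1, Sox2 and Zfp42 changed sign with it.

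Germ cell specification genes gave a different later course. Between E13.5 and E16.5, 9 of 10 fell (34.6% of all genes lower, 45.5% higher). Dnd1, which encodes an RNA-binding protein that germ cells need to survive, rose by 1.02 (limma adjusted p = 6.90e-09). The fall of Ddx4 in this step (-0.25) changed sign with scaling. Prdm14, a transcriptional regulator of the primordial germ cell state, went from 3624 ± 52.3 to 255 ± 26.4, 164 ± 33.1 and 26.6 ± 13.54. Ifitm3, a surface marker of primordial germ cells, went from 7468 to 667, 28.0 and 7.16. Both thus descended through every stage as Dppa3 did, and the drop of Prdm14 at P0 changed sign with scaling. From P0 to P3, 6 of 10 rose, 3 fell and 1 did not pass (median 1.11 against 0.05 over all genes tested, of which 40.1% were higher and 36.4% lower). Nanos3, which encodes an RNA-binding protein of early germ cells, dropped from 1368 ± 107 to 34.0 ± 12.4 at P0 and stood at 1045 ± 81.9 at P3.

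**Figure D5:**
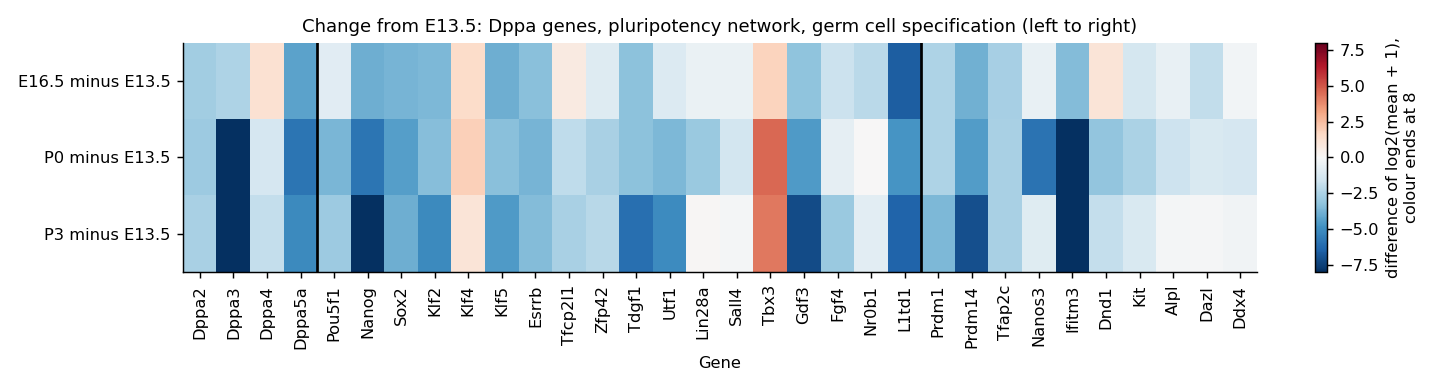
Difference of log2(mean + 1) from E13.5 at E16.5, P0 and P3 for the 4 Dppa genes, the 18 pluripotency genes and the 10 germ cell specification genes, separated by black lines; the colour scale ends at 8 in each direction. Most columns are blue at E16.5, with Dppa4, Klf4, Tfcp2l1, Tbx3 and Dnd1 in red.

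The DNA methylation genes with which DPPA3 is linked moved apart from each other. Of 11 tested, 5 rose, 5 fell and 1 did not pass between E13.5 and E16.5 (median 0.09, with 45.5% of all genes higher and 34.6% lower). Uhrf1, which encodes the protein that DPPA3 binds and that brings DNMT1 to replicated DNA, had means of 7681 ± 468, 1963 ± 97.8, 1376 ± 207 and 31559 ± 2158 in stage order. It thus stood lowest at P0 and highest at P3, where Dppa3 was at its trace level (P3 against P0, limma log2 difference 4.53, adjusted p = 5.14e-15). Its difference between E16.5 and P0 (-0.52) changed sign with scaling. Dnmt1, the maintenance methyltransferase gene, went from 12083 to 4287, 2851 and 12286, and its step from E16.5 to P0 also changed sign with scaling. The de novo genes rose as Dppa3 began to fall: Dnmt3l from 17.8 ± 5.31 to 20342 ± 1795 (log2 difference 10.12, limma adjusted p = 1.91e-17) and Dnmt3a by 3.33 (adjusted p = 8.89e-16). Tet1, the gene of a 5-methylcytosine dioxygenase, fell by 4.12 in that step (adjusted p = 4.38e-12) and Tet3 rose by 4.10 (adjusted p = 3.45e-12). From E16.5 to P0, 1 rose, 5 fell and 5 did not pass (27.6% of all genes higher, 33.4% lower). From P0 to P3, 5 rose and 6 fell (40.1% higher, 36.4% lower), with Uhrf2 and Xpo1 changing sign with scaling.

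Genes that DPPA2 and DPPA4 switch on in embryonic stem cells mostly had few counted reads. Of 20 genes of the 2-cell program, 19 were in the table and only 7 passed the filter, so the changes below are those of genes with reads in some stage. Duxf3, Zscan4e, Zscan4f and Sp110 had no read in any library, and Zscan4d had means of 0, 8.14, 16.2 and 5.60. Sequence shared with other genes was checked for Dppa genes only, so a count of 0 does not show absence here. Usp17la, a deubiquitinase gene, had means of 2.15 ± 2.18, 171 ± 20.0, 140 ± 16.95 and 58.6 ± 5.78. Arg2, the mitochondrial arginase gene, had 20.2 ± 5.36, 187 ± 37.9, 541 ± 32.0 and 275 ± 53.1. Of the 7, Zscan4d, Usp17lc and Usp17ld had no read at E13.5 and Usp17la, Usp17le and Tmem92 at most 4, so they passed the filter only through later stages and had to differ from E13.5. By limma 7 passed on the higher side in E16.5 against E13.5 (45.5% of all genes did). At P0, 2 were higher than at E16.5 with 5 not past (27.6% of all genes higher). At P3, 7 were lower than at P0 (36.4% of all genes lower). The filter bears on these counts too. Tmem92 reached 10 normalized counts in P0 libraries alone, so it had to be highest there. Zscan4d, Usp17lc, Usp17ld and Usp17le had P3 means below 10 and would have passed without the P3 libraries, which favoured a fall to P3. Usp17la and Arg2 were above 10 in every E16.5, P0 and P3 library, so their differences were not set by the filter. Of the 7 genes, Zscan4d, Tmem92 and Arg2 had their highest mean at P0, and Usp17la, Usp17lc, Usp17ld and Usp17le at E16.5. The number of genes with a read, given above, was highest at P0. Its part in the levels of the 7 genes was not tested. Leaving out P0 library 1 or P3 library 1 brought the genes lower at P3 from 7 to 4. Of 6 germline and bivalent genes tied to the pair in stem cells, 4 rose to E16.5 (45.5% of all genes did). Among them were Mael, a piRNA pathway gene (14374 ± 599 to 76214 ± 5048, limma log2 difference 2.41, adjusted p = 1.65e-14) and Mov10l1 (1.71). Nkx2-5 and Col16a1 also rose. At E13.5 Nkx2-5 had at most 4 reads and Col16a1 a mean of 9.30. Both passed the filter only through later stages, which favoured a rise. Mov10l1 fell by 2.27 to P0, a step in which Dppa4 also fell. The falls of Syce1 and Hormad1 to E16.5 changed sign with scaling. From E16.5 to P0, 1 of the 6 rose, 4 fell and 1 did not pass (27.6% of all genes higher, 33.4% lower). From P0 to P3, 3 rose and 3 fell (40.1% higher, 36.4% lower), and Hormad1 changed sign with scaling in both steps.

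Genes of the complexes that write the marks at those promoters moved in both directions at E16.5. Of 13 genes of the MLL and Polycomb complexes, 8 fell, 4 rose and 1 did not pass (over all genes tested 34.6% were lower and 45.5% higher), with a median of -0.81 against 0.31 over all genes tested. Suz12, a Polycomb subunit gene, fell 5.99-fold and Ezh2, the methyltransferase gene of the same complex, 4.28-fold (limma adjusted p = 8.74e-13 and 1.73e-12), beside 6.81-fold for Dppa2. Eed, their partner, rose by 0.53 (adjusted p = 6.25e-06). From E16.5 to P0, 2 rose, 8 fell and 3 did not pass (27.6% of all genes higher, 33.4% lower), with the falls of Kmt2a and Men1 changing sign with scaling. From P0 to P3, 10 rose, 2 fell and 1 did not pass (40.1% of all genes higher, 36.4% lower), of which the rises of Kmt2a, Ezh2 and Jarid2 changed sign with scaling. Mtf2 (1.88) and Dpy30 (1.90) were among the rest.

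Of the KH-domain relatives of Dppa5a, Khdc3 and Ooep fell by E16.5 and the 3 Khdc1 genes did not pass the threshold. Khdc3, a KH-domain gene of the oocyte's subcortical maternal complex, went from 1809 ± 179 to 59.4 ± 16.9 by E16.5, with 24.3 ± 1.98 at birth and 17.7 ± 8.45 by P3, and Ooep also fell in the first step. The first step of Khdc3 was -4.94 (limma adjusted p = 1.26e-10), beside -4.32 for Dppa5a. Their partners in that complex moved the other way: Tle6 rose from 287 ± 24.7 to 5347 ± 531 (log2 difference 4.21, limma adjusted p = 1.43e-15) and Padi6 from 28.4 ± 8.36 to 614 ± 88.3 (4.42, adjusted p = 1.30e-09). Of the 9 listed genes, all tested, 4 (these and Nlrp2 and Nlrp5, complex partners too) rose, 2 fell and Khdc1a, Khdc1b and Khdc1c did not pass in that step (45.5% of all genes higher, 34.6% lower). Khdc1a went from a mean of 140 to 267 without overlap of its libraries, Khdc1c from 17.1 to 43.4 and Khdc1b from 50.9 to 49.0. With 1 library left out, 6 to 7 of the 9 genes passed in this step. Nlrp2 had at most 2 reads at E13.5 and passed the filter only through later stages, which favoured its rise. From E16.5 to P0 none of the 9 passed on the higher side, 6 fell and 3 did not pass (27.6% of all genes higher, 33.4% lower). The 3 Khdc1 genes were among those 6, with log2 differences of -5.33, -4.47 and -4.02. Their P0 means were 5.68 (Khdc1a), 1.42 (Khdc1b) and 2.13 (Khdc1c). They passed the filter through other stages, which favoured a fall to P0. From P0 to P3, 4 fell and 5 did not pass (36.4% of all genes lower), and with TMM factors 7 passed.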

How the data were processed

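RNA from 12 libraries of male germ cells was sequenced. Per the labels' protocols, RNA was isolated with RNA plus XS and libraries were built with SMART-seq v4 Ultra Low input and TruSeq mRNA kits. The submitters' processing notes name bcl2fastq 2.20, cutadapt 1.18, HISAT2 2.1.0, featureCounts 1.5.2, DESeq2 1.26.0 and the builds mm10 and GRCm38, without roles. The deposited signal is a read count divided by a size factor (relative log expression, per the table's name). Strand setting, annotation release and the treatment of reads matching several genes are not given in the sources used here. Whole reads were recovered from the steps between each library's values (100% whole within 0.001). Mean factors ran from 0.939 (E13.5) to 1.94 (P0), so P0 counts are the most sensitive to scaling. Column heads carry the numbers 1, 3 and 4, unlike the titles, so columns were assigned to stages only.

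Log2(normalized count + 1) was fitted with limma 3.58.1 in R 4.3.3 over all 4 stages (trend, 8 residual degrees of freedom) for the 22384 genes reaching 10 normalized counts in 3 or more libraries. The 6 pairs of stages and an F-test were adjusted by Benjamini-Hochberg over all of them, at 0.05. Fold changes on this scale understate changes of low genes, and ratios quoted as folds are of mean normalized counts. Alternatives were TMM, median-of-ratios and equal-total scaling, pseudocounts of 0.1 and 10, no filter, 2-stage fits, edgeR 4.0.16 and DESeq2 1.42.0 on recovered reads, each library left out, a block, and, chosen after seeing the data, retrocopy reads added. Methods were tested on simulated reads in which a small share of genes was raised 2-fold or 4-fold at P0. In pairs with P0, limma called 64% to 71% of the 2-fold and 85% to 90% of the 4-fold changes. Most real genes differed between stages, so that setting does not test the scaling. The members and the gene lists were chosen with earlier results of these data known. Named are the members, all listed genes, the 5 nearest protein-coding genes a side, other Dppa genes, Morc1, and the 5 best-correlated genes per member (no predicted-gene or clone names). Symbols and positions came from GENCODE M21 and matched 99.4% of identifiers. The RefSeq promoter table matched 0 of the 4 members, so promoters and proteins were not analysed here.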

Additional observations from a re-analysis of the deposited data

How the results depend on the processing

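The 24 comparisons of a Dppa gene between 2 stages were recomputed under 23 alternatives each, 12 of them leaving out 1 library. Without left-out libraries 254 of 264 values kept direction and side of the threshold, as did 279 of 288 with 1 library left out, and all F-tests did. Scaling mattered most: against the deposited factors, the median of all genes moved by up to 0.30 (TMM), 0.46 (median of ratios) and 1.13 (equal totals), each in P0 against E13.5. Dppa2 changed sign in P0 against E16.5 (0.11 with TMM, 0.15 with median of ratios, 0.56 with equal totals), in P3 against P0 (-0.0079, -0.16 and -0.56) and in P3 against E16.5 (-0.0087 with median of ratios and -0.0036 with equal totals). Dppa5a changed sign in P3 against P0 with equal totals (-0.12). Dppa2 in P3 against P0 was 0.28 without the filter (limma adjusted p = 0.0656). With 1 library left out, Dppa2 ran from 0.24 to 0.34 in P3 against P0 and from -0.27 to -0.019 in P0 against E16.5. The counts for the 2-cell program were 1 with a pseudocount of 0.1 and 5 with no filter (from 2) for P0 against E16.5. For P3 against P0 they were 4 with a pseudocount of 0.1 and 4 with DESeq2 (from 7), and 4 to 7 with 1 library left out. The KH-domain count for P3 against P0 was 7, 7 and 8 under TMM, median-of-ratios and equal-total scaling, against 4. Apart from the fits with fewer samples or a different filter, the cause was not tested. With the replicate block (the numbers 1, 3 and 4 of the column heads) no member's call changed, and Dppa2 in P3 against P0 was 0.28 (limma adjusted p = 0.0480). Same-numbered libraries share only a number: their deviations correlated at -0.036 to 0.042 over 18 pairs, beside -0.072 to 0.053 over 36 pairs of other numbers. Depth limits Dppa3, Nanog and Gdf3 at P3, Khdc1a, Khdc1b and Khdc1c at P0, and the 2-cell genes.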
